A study of Mus musculus with 9 samples.

Results

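The barcodes described here were chosen by a rule on a few transcripts of the same count table in which they are described. A barcode entered if it held 200 to 8500 genes, at least 1 unique transcript (UMI) of Zic1 or Barhl1, and at least 1 UMI of Tubb3, Snap25 or Neurod1. It was left out if it held a UMI of Scn9a or Epcam, more than 2 UMIs of Calca, or a UMI of 2 or more of the olfactory genes Stoml3, S100a5, Omp and Kirrel2. Of the 6997 barcodes in the table, 6464 lay within the limits on genes, and 104 met the rule, 1.61% (1.32 to 1.95%) of those within the limits. They are called Zic1/Barhl1 barcodes below.

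The trigeminal ganglion, which holds the somatosensory neurons of the head, was dissociated from wild-type FVB/N mice in 9 Drop-seq runs. Males and females were used, and each run pooled the ganglia of many animals. The methods of the study put their age at 3 to 5 weeks and the labels put it at 3 to 6 weeks. The cells passed through a Percoll gradient and a kit that removes glia and other cells that are not neurons. Because the barcodes do not name their run, all of them are 1 pooled sample, no group has a replicate, and no test between groups of barcodes was made. The 104 barcodes held 1002 to 27727 UMIs each, with a median of 1637 UMIs and 1138 genes, and 234375 UMIs in all. The deepest barcode held 11.8% of these UMIs, and the next deepest held 10166 UMIs. Of the 104, 75 had fewer than 2000 UMIs and 7 had more than 5000. Levels are UMIs of a gene for every 1000000 UMIs of a group of barcodes (CPM) with exact Poisson 95% intervals, shares of barcodes with a UMI have exact binomial (Clopper-Pearson) intervals, and ratios have exact conditional intervals for a pair of counts. All of these intervals cover counting error only.

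Zic1 and Barhl1 encode transcription factors that act in the developing central nervous system, among other places in the granule neurons of the cerebellum and their precursors. Granule neuron precursors divide under the influence of Sonic hedgehog and express Atoh1. On leaving the cell cycle they turn on Neurod1 and later Neurod2, migrate and grow an axon, and once mature they express Cbln1, Cbln3, Gabra6, Fat2 and the vesicular glutamate transporter Slc17a7.

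Other barcodes, grouped by rules on marker genes, served for comparison. There were 2933 barcodes with a UMI of both Scn9a, a sodium channel of sensory neurons, and Tubb3. Of these, 115 with Epcam, 57 with 2 or more olfactory genes and 28 with Zic1 or Barhl1 were left out. The other 2733 are called sensory neurons (median 4057 UMIs). Olfactory neurons were 62 barcodes with a UMI of 2 or more of the 4 olfactory genes and none of Scn9a (median 1380 UMIs). Glia were 329 barcodes with at least 3 of 8 glial genes (median 1604 UMIs) and red blood cells were 413 with at least 2 of 8 red cell genes (median 1422 UMIs), both without Tubb3 and Snap25 and the glia also without Scn9a, and the share of these with a UMI is given as a background for genes that they do not themselves express. Since a deeper barcode shows more genes, shares are also given after each barcode was thinned at random to 1000 UMIs.

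The label proposed for these barcodes, central neurons marked by Zic1, Barhl1, Cbln1 and Tubb3, was only partly borne out by its markers. Zic1 had 258 UMIs in 95 of the 104 barcodes and Barhl1 had 86 UMIs in 54, and since at least 1 of them was required, these values describe the selection and are no finding. Both genes were seen in 45 barcodes, Zic1 alone in 50 and Barhl1 alone in 9. The number of Zic1 UMIs per barcode ran from 0 to 21 with a median of 2, and that of Barhl1 from 0 to 5 with a median of 1. Selection on such small numbers means that 25 barcodes entered on a single UMI of the pair.

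The neuronal genes of the rule were unevenly filled. Neurod1, a basic helix-loop-helix factor of differentiating neurons, had 568 UMIs in 92 barcodes, with 0 to 98 UMIs and a median of 4. Tubb3, the neuronal beta-tubulin, had 163 UMIs in 72 barcodes, and Snap25, of the vesicle release machinery, had 54 UMIs in 32. Cbln1, a synaptic organizer secreted by granule neurons and the only marker of the label that the rule did not use, had 21 UMIs in 15 of 104 barcodes (14.4%, 8.30 to 22.7%). It was at 0 in all glia and red blood cells and at 89.6 CPM against 1.84 CPM in sensory neurons. The 6 genes of mature granule neurons listed below were at 0 UMIs, and 78 of the 104 barcodes held 3 or more cell cycle genes. For this reason the barcodes are named by their rule and not by a cell type.

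**Figure D1:**
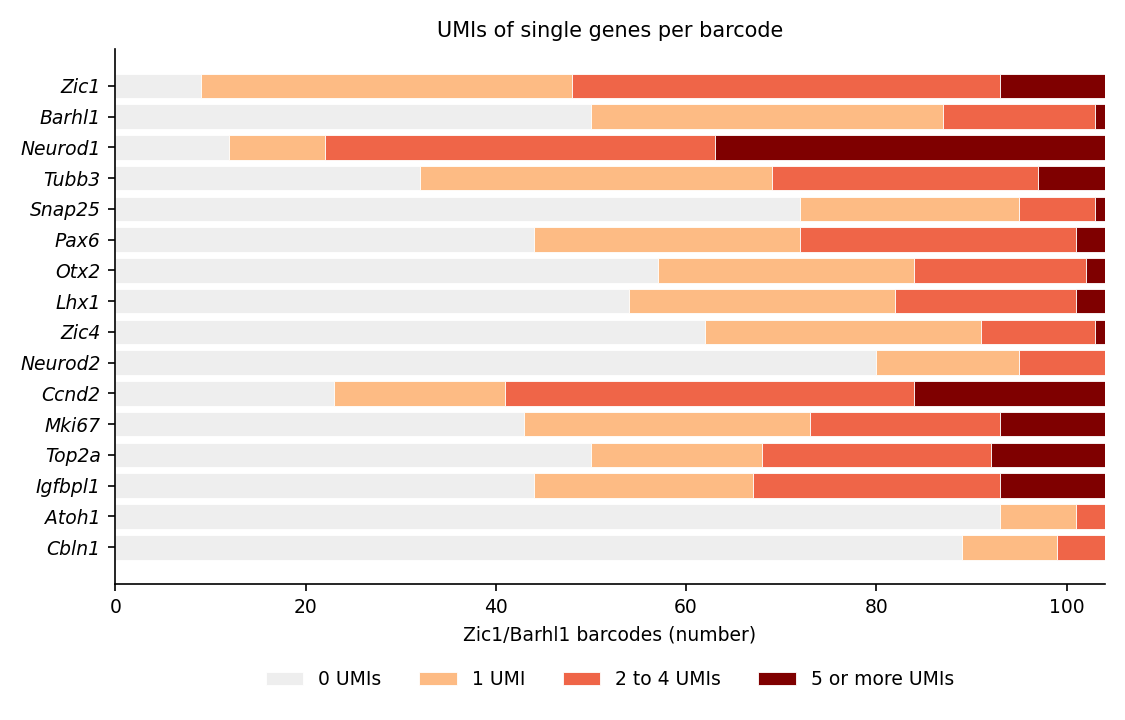
Number of the 104 Zic1/Barhl1 barcodes (horizontal axis) with 0, 1, 2 to 4, or 5 or more UMIs of each gene (rows). Zic1, Neurod1 and Ccnd2 were seen in 95, 92 and 81 barcodes, whereas Atoh1 and Cbln1 were seen in 11 and 15. Zic1, Barhl1, Neurod1, Tubb3 and Snap25 were part of the rule.

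The thresholds of the rule left out 46 of the 150 barcodes with Zic1 or Barhl1. Of these, 8 had no UMI of Tubb3, Snap25 or Neurod1, 31 had Scn9a, 4 had Epcam and 3 had more than 2 UMIs of Calca. No barcode was lost to the olfactory genes. Just inside the Calca limit lay 15 members with 1 or 2 UMIs, of which 1 had 2 UMIs, and 13 of the 15 held Neurod1 and 10 held Pax6. Just outside it, 1 of the 3 barcodes left out held Neurod1 and all 3 held Prph, an intermediate filament of peripheral neurons. At the Scn9a limit, 3 of the 5 barcodes with a single UMI of Scn9a held Neurod1 and 4 held Prph, and of the 26 with 2 or more, 12 held Neurod1 and 24 held Prph. Zic1 or Barhl1 was found in 29 of 2933 barcodes with Scn9a and Tubb3 (0.989%, 0.663 to 1.42%), and in 3 of 329 glia (0.912%). None of the 413 red blood cells had a UMI of either gene, and the upper limit on barcodes with a UMI is 0.726%.

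When all 6464 barcodes were clustered on 2000 variable genes without the genes of the rule, 101 of the 104 Zic1/Barhl1 barcodes (97.1%, 91.8 to 99.4%) fell into 1 of 24 clusters. That cluster held 156 barcodes and its leading genes were Neurod2, Zic1, Lhx1, Barhl1, 1500016L03Rik and Mfap4. The same number of members fell together at every other resolution and number of components tried. The other 3 members lay in clusters of 688, 404 and 168 barcodes. The first of these 3, with 2841 UMIs, held 4 UMIs of Gad1, the enzyme that makes GABA, and no Neurod1 or Pax6, and it also held 11 UMIs of Snap25. The second (3280 UMIs) and the third (3676 UMIs) each held 3 UMIs of Neurod1 and 1 of Pax6, in clusters led by the pituitary hormone gene Prl and by the itch peptide gene Nppb.

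The cluster also took in 42 barcodes with no UMI of Zic1 or Barhl1 (median 1508 UMIs), which the rule could not have chosen. Of these 42, 29 held Neurod1, 14 held Pax6, 14 held Otx2 and 10 held Lhx1. Zic4 was seen in 10 of the 42. The 42 also differed from the 104. The forebrain list took 376 CPM in them against 12.8 CPM, with Lhx2 in 4 and Sp8 in 4 of the 42 and in 0 of the 104. The forebrain list also took 244 CPM in olfactory neurons. A list of olfactory neuron genes took 810 CPM in the 42 against 457 CPM in the 104. Which cells these UMIs came from was not tested. The list for the meninges took 260.5 CPM against 38.4 CPM, and 16 of these UMIs were of Crabp2, a retinoic acid binding protein. Atoh1, Zic2 and En2 were each seen in 0 of the 42, which limits the barcodes with a UMI to 7.14% and not the cells that express the gene.

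Against sensory neurons, 7723 genes had a mean over both groups of at least 20 CPM. A gene is called higher or lower where the whole counting interval of its ratio lies above 2 or below 0.5, and 1166 of the genes (15.1%) were higher and 749 (9.7%) were lower in Zic1/Barhl1 barcodes. The median log2 ratio over all 7723 genes was 0.13. A gene under 13.3 CPM in sensory neurons reaches the mean of 20 CPM only with a ratio over 2, so its direction is set by the filter. In the same way a gene under 13.3 CPM in Zic1/Barhl1 barcodes can pass only by being lower there. The first holds for 668 of the 7723 genes and the second for 638, and of the other 6417 genes 620 were higher and 426 were lower. Among the 25 genes with the largest ratios, outside the rule, were transcription factors of the developing brain, genes of DNA replication and mitosis, and secreted proteins. Lhx1, a LIM homeobox factor, was at 457 CPM (374 to 552) against 0.262 CPM, a 1741-fold ratio (723 to 5470). Pax6, a paired homeobox factor of granule neurons and other brain progenitors, was at 606 CPM (510 to 714) against 0.734 CPM, an 825-fold ratio (476 to 1548). Otx2, a homeobox factor of forebrain, midbrain and part of the cerebellar granule layer, was at 422 CPM (343 to 514) against 0.315 CPM, a 1342-fold ratio (595 to 3745). The size of these ratios depends on the reference, because the 28 barcodes with Zic1 or Barhl1 that were kept out of it held 10 UMIs of Lhx1, 17 of Pax6 and 6 of Otx2, against 5, 14 and 6 UMIs in the 2733 sensory neurons. With the 28 kept, the ratio was 588-fold (341 to 1087) for Lhx1, 378-fold (255 to 577) for Pax6 and 680.2-fold (372 to 1361) for Otx2, and 1163 genes were higher and 748 lower. With each barcode weighted equally, Lhx1 had a ratio of 441 and Pax6 of 434.

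These factors were spread over many barcodes. Pax6 was seen in 60 of 104 barcodes (57.7%, 47.6 to 67.3%), with 0 to 32 UMIs and a median of 1. Lhx1 was seen in 50 barcodes with at most 11 UMIs, and Otx2 in 47 with at most 22. The share in sensory neurons was 0.512% for Pax6 and 0.183% for each of Lhx1 and Otx2, and no share in glia or red blood cells was over 0.608%. At 1000 UMIs per barcode, 38.5% of Zic1/Barhl1 barcodes had a UMI of Pax6, 33.7% of Lhx1 and 30.8% of Otx2.

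Other leading genes included Mfap4, a protein of the extracellular matrix, at 602 CPM in 50 barcodes, and Reln, the secreted protein that guides migrating neurons, at 107 CPM in 21. Fut9, a fucosyltransferase that makes the Lewis X carbohydrate, was at 201 CPM in 33 barcodes, and Cxcl14, a chemokine, was at 128 CPM in 26. Of 20 leading genes outside the rule and outside the list of cell cycle genes, each of the 104 barcodes held at least 1, with a median of 6 and a highest value of 20 in the deepest barcode. At least 3 of them were held by 97 of the 104 barcodes, by 31 of the 42 barcodes of the same cluster without Zic1 or Barhl1, by 6 of 2733 sensory neurons, by 5 of 329 glia and by 46 of 413 red blood cells. Of the 20, at least 6 are also genes of division or replication, Nuf2, Pbk, Spc25, Esco2, Uhrf1 and 2810417H13Rik. Since the 20 genes were picked for their ratio in these barcodes, these counts describe how evenly the genes were spread.

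**Figure D2:**
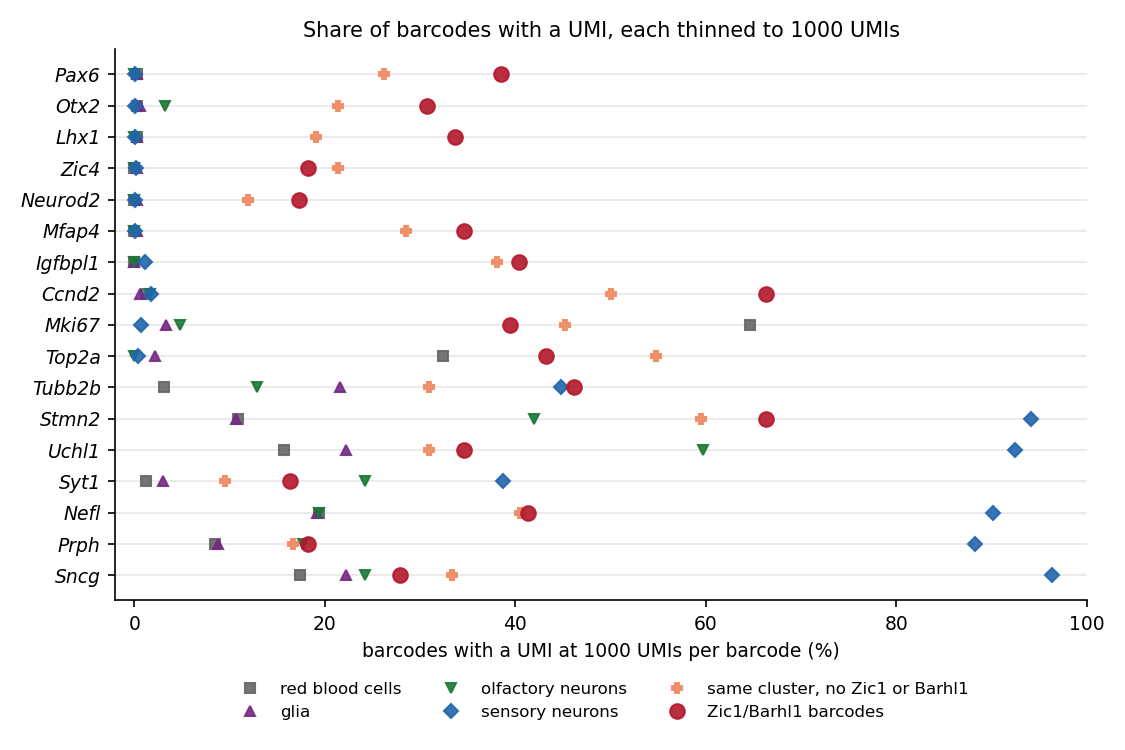
Share of barcodes with a UMI of each gene (horizontal axis, %) in 6 groups after every barcode was thinned to 1000 UMIs. Pax6, Otx2, Lhx1, Zic4, Neurod2, Mfap4 and Igfbpl1 were seen in Zic1/Barhl1 barcodes and in the same cluster and hardly elsewhere, Mki67 and Top2a were also seen in red blood cells, and Nefl, Prph and Sncg were seen in 88.3 to 96.3% of sensory neurons and in 18.3 to 41.3% of Zic1/Barhl1 barcodes.

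Relatives of Zic1 and Barhl1 were seen beside the genes of the rule. The 4 compared genes of the list of Zic and Barhl relatives lie under 13.3 CPM in sensory neurons, so that their levels are a description. Zic4, which lies head to head with Zic1, was at 273 CPM (210.3 to 349) in 42 barcodes, against 0.262 CPM, and the 28 barcodes kept out of the reference held 10 UMIs of it against 5 in the reference. Zic5 was at 218 CPM in 33 barcodes against 0.367 CPM, and its neighbour Zic2 was at 68.3 CPM in 16 against 0.0525 CPM. Barhl2 was at 55.5 CPM in 12 barcodes. In the GRCm38 assembly Zic1 spans chromosome 9 from 91358058 to 91365810 on the minus strand and Zic4 spans chromosome 9 from 91362413 to 91389348 on the plus strand, so the 2 genes overlap. Whether the counting used strand is not given in the sources used here, and without strand their reads in the overlap cannot be told apart. Zic5 and Zic2 lie side by side on chromosome 14, from 122456795 to 122465677 and from 122475435 to 122479852.

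Genes that mark position along the brain gave a partial picture. Of the list for midbrain and hindbrain, 4 of 5 compared genes were higher, all 4 under 13.3 CPM in sensory neurons, and 3 of 4 were without the deepest barcode or without the barcodes with 2 or more glial genes. In the main cluster alone 4 of 5 were higher and Meis2, a homeobox cofactor whose direction the filter set, was lower. Besides Otx2 the 4 genes were Meis1, a homeobox cofactor, at 209 CPM in 30 barcodes against 8.76 CPM, Uncx, a homeobox factor, at 162 CPM in 28 against 0.944 CPM, and En2, the engrailed factor of midbrain and cerebellum, at 42.7 CPM in 8 against 0.105 CPM. En1, Gbx2, Lmx1b, Pax5, Irx1 and Irx3 were at 0 UMIs. The forebrain list was nearly empty, with 10 of 13 genes, Emx1, Emx2 and Tbr1 among them, at 0 UMIs, and Dlx1 and Dlx2 at 1 UMI each. All 10 Hox genes in the table were at 0 UMIs. A count of 0 in all 104 barcodes allows up to 2.88% of barcodes with a UMI, or up to 12.8 CPM. It does not limit the share of cells that express the gene.

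Of the 22 granule neuron genes in the table, 12 could be compared with sensory neurons and 9 were higher. Of these 12, 7 lie under 13.3 CPM in sensory neurons, and of the other 5 genes Nfib and Nfia were higher. Nfib and Nfia, nuclear factor I proteins of differentiating neurons and glia, were at 1775 CPM in 90 barcodes against 33.5 CPM and at 474 CPM in 48 against 24.5 CPM. Mab21l1 was at 329 CPM in 41 barcodes against 11.2 CPM. Neurod2 was at 166 CPM (118 to 227) in 24 barcodes, with 2 UMIs in the 2733 sensory neurons and 8 UMIs in the 28 barcodes kept out of that group. Cadps2, a factor of dense-core vesicle release, was at 93.9 CPM against 12.4 CPM, and Calb2, calretinin, was at 46.9 CPM in 6 barcodes.

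Several genes of mature granule neurons were not seen. Slc17a7, Cbln3, Fat2, Gabrd, Grin2c and Kcnk9 were at 0 UMIs, and Gabra6 was not analysed here. Rbfox3, the NeuN antigen of most mature neurons, was at 379.7 CPM (305 to 467) in 45 barcodes against 302 CPM and was not called different. Etv1, Chn2, Tiam1 and Fgf14 had 1 to 6 UMIs each. Slc17a6, the vesicular glutamate transporter of many young and subcortical neurons, was at 107 CPM in 21 barcodes, below the 408 CPM of sensory neurons.

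Markers of other cerebellar and central neurons were few. Of the list for other cerebellar neurons, 1 of 4 compared genes was higher, Eomes, a T-box factor of unipolar brush cells and other young glutamatergic neurons, with 10 UMIs in 7 barcodes against 0.105 CPM, a direction set by the filter. Without the deepest barcode, 0 of 3 compared genes of this list were higher. The Purkinje cell genes Pcp2, Car8, Itpr1 and Ppp1r17 were at 0 UMIs. Gad1 and Gad2 had 5 and 6 UMIs, and the vesicular GABA transporter Slc32a1 was at 0 UMIs. The genes for making and carrying dopamine, noradrenaline, serotonin and acetylcholine, 9 in the table, were all at 0 UMIs.

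Of the list for immature neurons, 14 of 18 compared genes were higher than in sensory neurons and none was lower. Of the 18, 11 lie under 13.3 CPM in sensory neurons, and of the other 7 genes Ccnd2, Pcna and Dcx were higher. The list includes cell cycle genes such as Mki67, Top2a and Pcna, which are described below. Igfbpl1, a secreted protein of newborn neurons, was at 789 CPM in 60 barcodes against 8.13 CPM, a 97.1-fold ratio (78.0 to 121). Nhlh2 and Nhlh1, helix-loop-helix factors of newly postmitotic neurons, were at 282 and 93.9 CPM against 8.18 and 0.472 CPM. Dcx, the microtubule protein doublecortin of migrating neurons, was at 209 CPM in 31 barcodes against 18.5 CPM. Tubb2b, Stmn1, Cntn2 and Sox4 were not called, since sensory neurons also held them. Tubb2b was at 751 CPM against 621 CPM, and Stmn1 at 521 CPM against 269 CPM.

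Among genes of granule neuron precursors, Atoh1 and Gli1 were present at low counts, and Ccnd2 and Ccnd1 at higher counts. Atoh1, the factor that specifies these precursors, had 14 UMIs in 11 barcodes (10.6%, 5.40 to 18.1%) and 0 UMIs in the 19064333 UMIs of sensory neurons, and the interval of its ratio begins at 269.8-fold. It was also at 0 in olfactory neurons, glia and red blood cells. Gli1, a transcriptional target and effector of hedgehog signalling, had 15 UMIs in 12 barcodes, of which 6 also held Atoh1. Ccnd2 and Ccnd1, D-type cyclins that drive entry into the cell cycle, were at 1446 CPM in 81 barcodes against 20.2 CPM and at 294 CPM in 34 against 1.68 CPM. Ccnd2 was seen in 0.912% of glia and 2.42% of red blood cells.

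The hedgehog pathway was covered by a list drawn up after the leading genes were known. All 4 of its compared genes, Gli1, Mycn, Boc and Sfrp1, were higher than in sensory neurons, and Gli1 and Mycn are also on the list for immature neurons. Of the 4, Sfrp1 alone lies over 13.3 CPM in sensory neurons. Sfrp1, a secreted inhibitor of Wnt signalling, was at 841 CPM (727 to 966) in 60 barcodes against 66.6 CPM. Mycn, a transcription factor that hedgehog signalling raises in precursors, was at 115 CPM in 19 barcodes against 12.1 CPM. The receptor genes were thin, with 4 UMIs of Smo and none of Ptch1.

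Lists for migration and for chromatin, of the same origin, gave mixed counts. Of 11 compared genes for migration and axon growth, 4 were higher, all under 13.3 CPM in sensory neurons, and 1 was lower. Draxin, a repulsive guidance protein, was at 256 CPM in 31 barcodes against 2.31 CPM, Sema6a, a semaphorin needed for granule cell migration, was at 192 CPM against 4.93 CPM, and Unc5c, a netrin receptor, was at 98.1 CPM against 10.2 CPM. The lower gene was Robo2, a Slit receptor, at 55.5 CPM against 243 CPM. Of 12 compared genes of chromatin and growth, 1 was lower, Id3, with 1 UMI against 70.2 CPM, and 6 were higher, among them Chd7, a chromatin remodeller, at 495 CPM in 51 barcodes against 4.62 CPM, Ezh2, the Polycomb methyltransferase, at 666 CPM in 56 against 13.2 CPM, and Insm1, a zinc finger factor of neuronal precursors, at 299 CPM in 40 against 10.9 CPM. Of these 6, Hes6 alone lies over 13.3 CPM in sensory neurons. Chd7 and Ezh2 were also seen in 17.6% and 22.5% of glia.

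Genes of the cell cycle, a list also drawn up after the leading genes were known, were counted next, and 78 of the 104 barcodes held 3 or more of them. Of the 28 genes, 27 could be compared with sensory neurons, and 26 of these lie under 13.3 CPM there, so that the filter set their direction. Pcna, over that level, was higher. Mki67, the nuclear antigen of cycling cells, was at 789 CPM (679.7 to 912) in 61 barcodes against 4.72 CPM, and Top2a, the topoisomerase of dividing cells, was at 964 CPM (843 to 1099) in 54 against 2.78 CPM. Pcna, the sliding clamp of DNA replication, was at 683 CPM against 59.5 CPM, and Cenpf, a kinetochore protein of late cycle, was at 623 CPM against 2.05 CPM. Both replication and mitosis were represented, with Mcm6 in 29, Rrm2 in 34, Ccnb1 in 27 and Cdc20 in 23 barcodes.

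The cycle genes were seen together in the same barcodes. The number of them with a UMI ran from 0 to 27 per barcode, 14 barcodes had none, and 78 of 104 (75%, 65.6 to 82.97%) had 3 or more. At 1000 UMIs per barcode the share with 3 or more was 69.2% (59.4 to 77.9%). The same share was 0.402% in sensory neurons, 3.23% in olfactory neurons, 3.95% in glia, 70.7% in red blood cells and 81.0% (65.9 to 91.4%) in the 42 barcodes of the same cluster without Zic1 or Barhl1. Red blood cells and Zic1/Barhl1 barcodes thus held cycle genes at a like share. Mki67 was seen in 70.5% of red blood cells, so that this group expresses cycle genes itself and gives no background for them. Blood RNA was present in Zic1/Barhl1 barcodes too, as described below, and at least 1 of 4 genes of developing red cells other than haemoglobin (Slc4a1, Hemgn, Kel and Tal1) was seen in 3 of 104 barcodes. The same genes were seen in 91.0% of red blood cells, a group whose rule used them. In 9 barcodes the blood and pituitary lists took 10% or more of the UMIs, and without them the share with 3 or more cycle genes was 77.9% (68.2 to 85.8%).

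**Figure D3:**
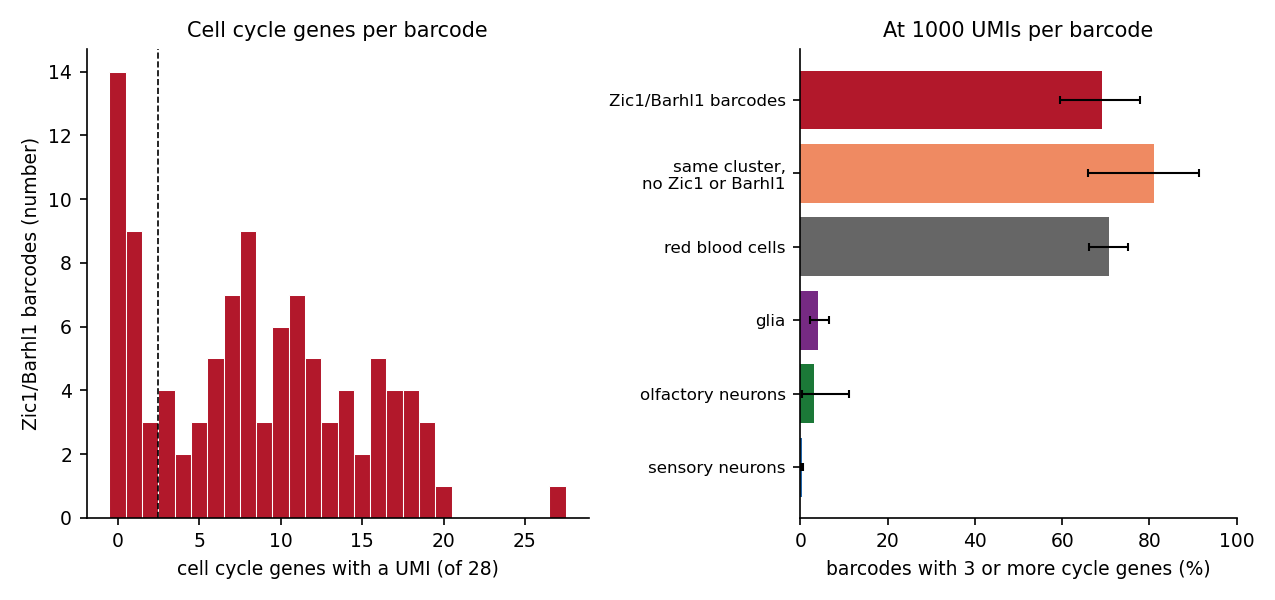
Left, number of the 104 Zic1/Barhl1 barcodes by how many of 28 cell cycle genes had a UMI, with a dashed line below 3 genes. Right, share of barcodes with 3 or more of these genes at 1000 UMIs per barcode in 6 groups, with exact binomial 95% intervals. The share was 69.2% in Zic1/Barhl1 barcodes, 70.7% in red blood cells and at most 3.95% in glia, olfactory neurons and sensory neurons.

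The 78 barcodes with 3 or more cycle genes were set against the 26 with fewer, a split made after the values were seen. Their median depths were 1664.5 and 1397 UMIs. Of the 9 barcodes in which blood and pituitary genes took 10% or more of the UMIs, 4 are among the 78 and 5 among the 26, and these genes took 1.67% and 8.76% of the UMIs of each group. Of 69 genes with at least 20 UMIs, drawn from the rule, the leading genes and 8 lists and outside the cell cycle list, 14 had an interval of the ratio wholly above 1 and 26 wholly below 1. These intervals hold for counts and not for cells, and with 1 pooled sample no test was possible. Only these 69 genes were compared, so the counts by list below have no background over all genes. Of the 14 genes, 6 were at 0 UMIs in the 26 barcodes. These were Nuf2, Pbk, Spc25, Esco2, Uhrf1 and 2810417H13Rik, the genes of division or replication named above. They did not make the split, but a split on cycle genes favours low counts of them, and their absence is no separate finding. Without the 9 barcodes rich in blood or pituitary genes 14 intervals lay above 1 and 27 below, and the 1 gene that changed side was Zic5, at 0.47 (0.24 to 0.97).

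Of the other 8 genes with an interval above 1, 3 are on the list for immature neurons, Igfbpl1, Ccnd1 and Ccnd2, where 4 of 12 compared genes had an interval below 1 and 5 an interval that included 1. Sfrp1 was at 984 CPM with 3 or more cycle genes and 169 CPM with fewer, a 5.81-fold ratio (2.76 to 14.6). Igfbpl1 was at 912 against 218 CPM, Mfap4 at 694 against 169 CPM, Ezh2 at 772 against 169 CPM and Insm1 at 342 against 96.8 CPM. Ccnd1 and Ccnd2 were 4.71-fold and 3.24-fold higher. Of the 15 UMIs of Gli1 and 14 of Atoh1 too few were present to be compared.

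Of 14 compared pan-neuronal genes, 12 had an interval below 1, and those of Nsg1 and Nsg2 included 1. Of 6 compared genes for migration and axon growth 4 had an interval below 1, and those of Draxin and Unc5c included 1. Mapt, the microtubule protein tau, was at 77.7 CPM in barcodes with 3 or more cycle genes against 799 CPM in those with fewer, and the share of barcodes with a UMI was 11.5% against 69.2%. Celf4, a neuronal RNA-binding protein, was at 135 against 775 CPM, Tubb2a at 259 against 1065 CPM and Sema6a at 98.4 against 629 CPM. Cbln1 was at 57.0 against 242 CPM, Neurod2 at 119 against 387 CPM, Cadps2 at 62.2 against 242 CPM and Rbfox3 at 316 against 678 CPM. Of 9 compared granule neuron genes, 5 had an interval below 1, Cbln1, Neurod2, Cadps2, Reln and Rbfox3, and 1 above 1, Nfia, with a ratio of 2.16 (1.13 to 4.64). For the other transcription factors of the list and for those that mark position the interval included 1. Pax6 was at 606 against 605 CPM with a ratio of 1.001 (0.65 to 1.61), Otx2 had a ratio of 1.11 (0.64 to 2.03), Zic4 of 0.93 (0.49 to 1.91), Zic5 of 0.57 (0.30 to 1.13) and Neurod1 of 0.90 (0.73 to 1.12). These intervals leave room for differences in either direction. Leaving out the deepest barcode, which belongs to the 78, moved none of the ratios in the plot across 1. In the 101 barcodes of the main cluster alone, 77 with 3 or more cycle genes and 24 with fewer, 13 intervals lay above 1 and 26 below. There 5 genes changed side. The intervals of Nfia, at 1.85 (0.97 to 3.98), Sox4, at 0.47 (0.24 to 1.01), and Elavl4, at 0.52 (0.21 to 1.47), included 1, and those of Neurod1, at 0.79 (0.64 to 0.98), and Zic5, at 0.47 (0.25 to 0.95), lay below 1. Snap25, Neurod1, Tubb3 and Zic1 were part of the rule, and for Snap25 11 of the 26 UMIs in the barcodes with fewer cycle genes came from 1 barcode outside the main cluster.

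**Figure D4:**
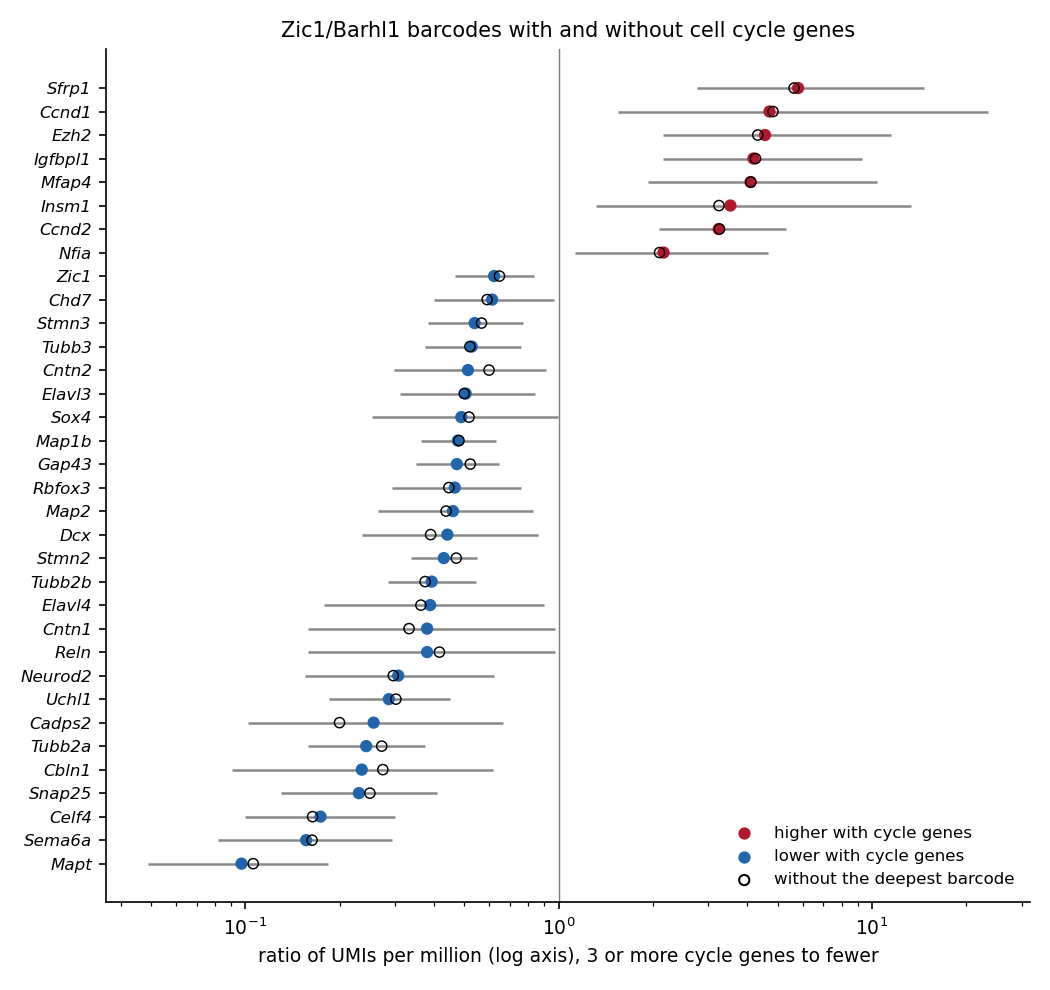
Ratio of CPM in the 78 Zic1/Barhl1 barcodes with 3 or more cell cycle genes to that in the 26 with fewer (log axis), with 95% counting intervals, for the 34 genes whose interval does not include 1 and that have a UMI in both. Open circles give the ratio without the deepest barcode. Sfrp1 has the highest ratio, 5.81, and Mapt the lowest, 0.10.

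Against sensory neurons, general neuronal genes were mixed. Of 14 compared pan-neuronal genes, 6 were lower, 8 were not called and none was higher, beside 9.7% lower over all genes. Stmn2, a stathmin of growing axons, was at 1348 CPM in 79 barcodes against 3591 CPM, and was seen in 18.2% of glia and 16.5% of red blood cells. Uchl1, a neuronal ubiquitin hydrolase, was at 379.7 CPM against 3247 CPM. Gap43, of growth cones, was at 905 CPM in 69 barcodes against 1070.3 CPM and was not called. Of 15 compared synaptic vesicle genes, 5 were lower and none was higher, with Syt1, the calcium sensor of release, at 183 CPM in 23 barcodes against 589.8 CPM.

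Channels and transmitter receptors differed gene by gene. Among AMPA and kainate receptors, Gria2 was at 346 CPM in 40 barcodes against 83.5 CPM and Grik2, whose direction was set by the filter, at 89.6 CPM in 17 against 4.77 CPM, but Gria2 was also seen in 22.8% of glia. Grik1 was lower, with 1 UMI against 283 CPM, and its direction was also set by the filter. The NMDA receptor gene Grin2b had 8 UMIs in 7 barcodes against 0.42 CPM and was too low to be compared. Among GABA-A receptors, Gabra4, set in direction by the filter, was at 46.9 CPM in 6 barcodes against 3.51 CPM, while 3 of the 6 compared genes were lower, among them Gabra2, at 17.1 against 124 CPM. In the main cluster alone 0 of 5 were higher and 3 were lower. The potassium channel genes Kcnj3 and Kcnj6 were at 68.3 and 42.7 CPM against 6.98 and 2.47 CPM, with the direction of both set by the filter, and Kcna1 was lower, at 34.1 CPM against 147 CPM. Without the barcodes with 2 or more glial genes, 1 of 8 potassium channel genes was higher and 0 were lower, and 1 of 7 GABA-A genes was lower. Of 5 compared sodium channel genes, 3 were lower, among them Scn10a and Scn11a, which mark nociceptors.

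Genes of sensory neurons were lower almost throughout. Of 26 compared genes of the sensory list, 24 were lower, and the other two were the neurotrophin receptors Ntrk2 and Ntrk3. The filter set the direction of 10 of the 24, and of the 15 genes over 13.3 CPM in both groups 14 were lower. The selection also favours this direction, since the rule left out barcodes with Scn9a or more than 2 UMIs of Calca. The reference, in turn, required Scn9a. Of the barcodes with Zic1 or Barhl1 left out for 2 or more UMIs of Scn9a, 24 of 26 held Prph. How much of the difference comes from the selection was not tested. Isl1 and Pou4f1, the homeobox factors shared by all sensory neurons, were seen in 4 and 2 of 104 barcodes, against 60.7% and 50.1% of sensory neurons. At 1000 UMIs per barcode each was seen in 1.92% of Zic1/Barhl1 barcodes, against 22.1% and 16.1% of sensory neurons. The neurofilament gene Nefl was at 457 CPM (374 to 552) against 5530.0 CPM, Prph at 196 against 2892 CPM and Sncg, gamma-synuclein, at 320.0 against 6377 CPM. At 1000 UMIs per barcode Nefl was seen in 41.3% of Zic1/Barhl1 barcodes. Without thinning it was seen in 54.8% of them, in 33.4% of glia and in 24.9% of red blood cells, so that this sensory transcript was also found in barcodes of other cells. The list took 2240.0 CPM in Zic1/Barhl1 barcodes, 1282 CPM in glia and 1336 CPM in red blood cells, against 29879.5 CPM in sensory neurons.

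Among the 15 genes with the largest ratios the other way were Rph3a, a vesicle protein, with 1 UMI in the 104 barcodes against 357 CPM, Adcyap1, the peptide PACAP, with 1 UMI against 248 CPM, Tac1, the precursor of substance P, at 59.7 against 2392 CPM, and Hspb1, a small heat shock protein, with 2 UMIs against 322 CPM. Ifi27 had 3 UMIs against 507 CPM and Tagln2 had 4 UMIs against 926 CPM. Scn9a and Calca, which also stand among the 15, were part of the rule.

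**Figure D5:**
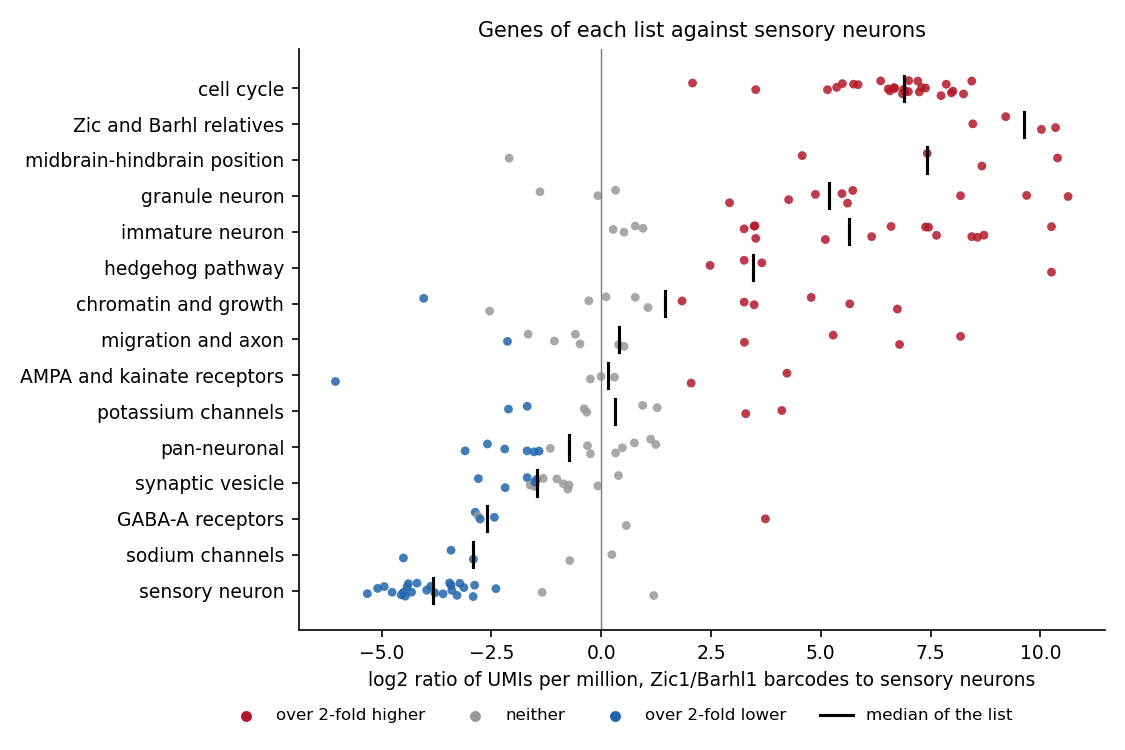
Log2 ratio of CPM in Zic1/Barhl1 barcodes to that in sensory neurons for each compared gene of 15 lists, with the median of each list as a black line. Colour marks genes whose counting interval lies wholly over 2-fold higher or lower. The median of the sensory list is -3.83, and genes under 13.3 CPM in sensory neurons can appear on the higher side alone.

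Markers of other cells were measured in full. Of the blood list, 100 barcodes had a UMI of at least 1 gene and all 4 compared genes were higher than in sensory neurons. Without the 9 barcodes in which the blood and pituitary lists took 10% or more of the UMIs, 0 of the 4 were higher. The median share of both lists was 0.461%, and the share of the blood list reached 58.8% in 1 barcode. Hbb-bs, adult beta-globin, was seen in 99 of 104 barcodes, but also in 92.1% of glia and 92.5% of sensory neurons. Gh, growth hormone, had 1111 UMIs in 30 barcodes, of which 969 were in 1 barcode outside the main cluster, where the pituitary list took 29.6% of UMIs. In the main cluster alone 0 of 3 compared pituitary genes were higher. Of the 9 barcodes in which these lists took 10% or more of UMIs, 8 lay in the main cluster. Whether these are droplets with more than 1 cell was not tested.

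Myelin transcripts were present at low levels. Mbp, myelin basic protein, was seen in 35 barcodes at 235 CPM against 121 CPM in sensory neurons, and the oligodendrocyte list took 951 CPM against 149848 CPM in glia. Sox10 and Opalin were at 0 UMIs. Of the list for meninges, where Zic1 is also expressed, 9 of 13 genes, Col1a1, Foxc1, Lum and Ptgds among them, were at 0 UMIs, and the rest summed to 9 UMIs in 6 barcodes. Of the list for hair cells, which also express Barhl1, 9 of 12 genes were at 0 UMIs, and of the immune and vascular list 12 of 13.

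Olfactory neurons, chosen like the Zic1/Barhl1 barcodes for having no UMI of Scn9a, gave a second comparison. With 110623 UMIs in the olfactory group, 7656 genes could be compared, of which 417 (5.45%) were higher and 525 (6.86%) were lower in Zic1/Barhl1 barcodes. The olfactory group also held RNA of other cells. The oligodendrocyte, blood and pituitary lists took 7620, 59409 and 18061 CPM in it, against 951, 24294 and 4873 CPM. Of the compared genes of these lists, 9 of 10, 5 of 9 and 3 of 4 were lower in Zic1/Barhl1 barcodes. Both comparisons share the Zic1/Barhl1 barcodes, and the filter sets the direction of genes under 13.3 CPM in either group here too. Cell cycle genes were higher in 26 of 27 compared, of which 18 lie under that level in olfactory neurons, and the other 8 include Mki67, Pcna, Ube2c and Hmgb2. Granule neuron genes were higher in 8 of 11, of which 5 lie under it, and the other 3 are Nfia, Nfib and Rbfox3. Immature neuron genes were higher in 10 of 18, of which 5 lie under it. The 2 of 4 Zic and Barhl relatives that were higher both lie under it, and the 2 of 5 midbrain and hindbrain genes, Otx2 and Meis1, do not. Pax6, Lhx1, Zic4 and Neurod2 were at 0 UMIs in olfactory neurons. Sfrp1 was at 841 CPM against 9.04 CPM, a 93.0-fold ratio. Uncx, which stood out against sensory neurons, was at 162 CPM against 235 CPM and was not called. Of 23 compared sensory neuron genes, 9 were lower and 1 was higher than in olfactory neurons, and the filter set the direction of 5 of the 9 and of the 1.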

How the data were processed

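The table used here, deposited by the authors, holds counts, the number of UMIs of each of 21536 genes in each barcode, with no normalization. Per the submitters' processing notes, bcl2fastq 2.17, STAR 2.5.3a with the mm10 genome and Seurat 1.4.0.16 were used. Its UMIs sum to 30491529, and the median barcode has 2031. Of the barcode sequences, 6 occur with the endings .x and .y, which do not name a run, and none of these is a member. Doublets were neither called nor removed here. PCR copies were collapsed by UMI in the deposited counts, and intervals and the limits set by 0 counts (3 counts) cover counting error only.

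Counts were summed over groups of barcodes. The clustering used log values of counts per 10000, 2000 variable genes, 20 principal components, 15 neighbours and Leiden at resolution 1 (scanpy 1.11.5). Intervals were computed with scipy 1.17.1. The calls were also run on simulated data, but no outcome is reported here, so that this does not bear on how reliable they are. Named genes were the genes of the rule, the most abundant genes and the genes at 0 of each list, the 25 and 15 genes with the largest called ratios, up and down, among those seen in at least 20% of the group where they are higher, and genes singled out after their values were seen: those of the split by cycle genes, Ccnd1, Sema6a, Robo2, Ptch1, Smo, Grin2b and the cycle genes named for replication and mitosis. Gene positions are from GENCODE vM21. The members and the lists were chosen with earlier results of these data known, and the cell cycle, hedgehog, migration and chromatin lists after the leading genes had been seen. Some genes are not reported here.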

Additional observations from a re-analysis of the deposited data

Results flagged for a closer look

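The limits on genes set aside 10 barcodes with more than 8500 genes. In these, 4 UMIs of Zic1 and 0 of Barhl1 were found, all in 1 barcode (10%, 0.253 to 44.5% of the 10). With 1 deep barcode these UMIs do not bear on how often Zic1 occurs above the limit. The 523 barcodes with fewer than 200 genes held neither gene, and the upper limit on the share of them with a UMI is 0.574%.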

How the results depend on the processing

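The number of Zic1/Barhl1 barcodes was 45 when UMIs of both genes were required, and 79 with at least 2 UMIs over the pair, 89 with Calca at 0, 71 with 2 of the 3 neuronal genes and 87 after thinning. Genes higher than in sensory neurons numbered 742 with a mean of at least 50 CPM and 574 with an interval beyond 4-fold, under which 256 genes were lower. The other settings gave 971 to 1613 higher and 528 to 795 lower genes. No ratio of the 13 genes followed turned direction. In the main setting these ratios were 48.8 or more, or 0.0826 or less, so a turn was unlikely from the start. That none turned therefore says little about how stable the sizes are. Over the settings tried, 20 ratios of these genes lay outside the interval of the main setting and 136 lay within it. For the shares of barcodes with a UMI, 15 lay outside and 141 within. With each barcode weighted equally, the ratio to sensory neurons was 434 for Pax6, 441 for Lhx1, 420.3 for Zic4, 412 for Mfap4 and 156 for Top2a, and the cause was not tested. Leaving out the deepest barcode or the 9 barcodes rich in blood or pituitary genes, both chosen after seeing the data, gave 1081 and 1200 higher genes. Keeping the sensory barcodes with Zic1 or Barhl1, also chosen after seeing the data, gave a ratio of 352 for Zic4, 322 for Neurod2 and 401 for Mfap4. No paired analysis was possible because the barcodes do not name their run and no result comes from a test. The depth limits statements on genes at 0 UMIs to 12.8 CPM.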

Other observations

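Some genes of astrocytes and of glial progenitors were seen at low counts. Of 5 compared astrocyte genes, 2 were higher than in sensory neurons, Sox9, a factor of neural progenitors and glia, at 81.1 CPM in 13 barcodes against 1.42 CPM, and Slc1a2, a glutamate transporter, at 89.6 CPM in 18 against 6.50 CPM. Both lie under 13.3 CPM in sensory neurons, so that the filter on low levels set their direction, as the 0 UMIs of Aldoc did for that gene. The list as a whole took 260.3 CPM against 492 CPM, and 2 of its genes were lower, Aldoc, at 0 UMIs against 195 CPM, and Hopx, at 21.3 against 220.4 CPM. The defining astrocyte genes Aqp4, Gfap, Aldoc, Gjb6 and Gdf10 were at 0 UMIs. Fabp7, of radial and satellite glia, had 9 UMIs in 8 barcodes.

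Immediate early genes, which respond to stimulation and to dissociation, did not move together. Of 8 compared, Ier2 and Egr1 were higher, at 580.3 and 418 CPM against 51.9 and 146 CPM, Atf3 and Junb were lower, at 29.9 and 25.6 CPM against 183 and 115 CPM, and Fos was at 277 against 477 CPM and was not called. Without the deepest barcode, 1 of the 8 was higher. Ier2 was also seen in 22.5% of red blood cells and 12.5% of glia.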
